A study of Mus musculus with 6 samples.

Results

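The genes described here are 9 ligands and receptors of 3 trophic factor families, given as a list of symbols that was drawn up with earlier results of these data known: the neurotrophin genes Bdnf, Ntrk2, Ntrk3 and Ngfr, the GDNF receptor genes Gfra1, Gfra2 and Ret, and the insulin-like growth factor genes Igf1 and Igf1r. All 9 were found among the 55335 genes of the count table, and all 9 passed the filter on low counts, which left 17687 genes. The SOHU group (silicone oil-induced ocular hypertension, under-detected) is 3 libraries from retinas of wild-type C57BL/6 mice aged 10 weeks, taken 1 week after silicone oil was put into the anterior chamber, a procedure that raises eye pressure and serves as a model of glaucoma. The naive group is 3 libraries from the same strain, genotype and age, whose condition is labelled naive; the labels attach the text on oil injection to these libraries as well. In both groups RNA was recovered from homogenised retina with an anti-HA antibody on magnetic beads, and the labels name the cells as retinal ganglion cells (RGCs), the output neurons of the retina. The labels do not name the tagged protein or the promoter that drives it, nor do they say whether libraries of a group are separate animals or pools, so a p-value here sets a difference against the spread of these 6 samples, which may be technical.

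Neurotrophins act through Trk receptor tyrosine kinases: BDNF binds TrkB, the product of Ntrk2, and neurotrophin-3 binds TrkC, the product of Ntrk3, while the p75 receptor encoded by Ngfr binds all neurotrophins and their uncleaved precursors. GDNF family ligands bind a membrane-anchored co-receptor, GFRα1 for GDNF and GFRα2 for neurturin, which then engages the shared kinase RET. IGF-1 binds the receptor tyrosine kinase IGF1R. All of these kinases feed the PI3K-AKT and RAS-ERK pathways, and in RGCs BDNF is known both as a survival factor and as a cargo carried back along the axon from the brain.

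Promoter sequence was taken from RefSeq (GRCm38.p6, the assembly behind mm10), as windows from 250 bases before to 50 bases after an annotated start. The table held 12 windows for 6 of the 9 genes: 7 for Bdnf and 1 each for Ntrk2, Ngfr, Gfra1, Igf1 and Igf1r. Bdnf is transcribed from several separate starts, and the gene-level counts used here sum over all of them. Each window was searched on both strands for the cAMP response element TGACGTCA, for its core TGACG, which lies within it, and for the homeodomain core TAATTA. The core TGACG occurred in 1 of the 12 windows, against 20.8% of the 32851 windows of all genes. The full element, present in 1.79% of all windows, and the homeodomain core, present in 5.29%, occurred in none of the 12. The Bdnf window with the core is shown because activity-dependent Bdnf transcription is known to run through such elements; the core is in capitals and starts at position -35 from the annotated start, on the opposite strand. The windows of Gfra1 and Igf1 are shown because these genes fell; they hold none of the 3 motifs and therefore no capitals.
Bdnf, chr2:109692186-109692485, plus strand: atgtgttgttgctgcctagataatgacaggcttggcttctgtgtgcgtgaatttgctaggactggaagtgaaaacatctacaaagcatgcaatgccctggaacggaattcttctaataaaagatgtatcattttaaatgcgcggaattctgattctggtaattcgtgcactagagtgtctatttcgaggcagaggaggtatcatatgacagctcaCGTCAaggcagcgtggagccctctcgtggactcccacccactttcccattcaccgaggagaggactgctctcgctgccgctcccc
Gfra1, chr19:58455349-58455648, minus strand: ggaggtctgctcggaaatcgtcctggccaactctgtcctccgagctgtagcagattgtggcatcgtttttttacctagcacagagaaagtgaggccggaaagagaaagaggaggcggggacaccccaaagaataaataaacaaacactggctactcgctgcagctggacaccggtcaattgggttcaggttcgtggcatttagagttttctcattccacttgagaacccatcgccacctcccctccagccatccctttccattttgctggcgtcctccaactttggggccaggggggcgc
Igf1, chr10:87860861-87861160, plus strand: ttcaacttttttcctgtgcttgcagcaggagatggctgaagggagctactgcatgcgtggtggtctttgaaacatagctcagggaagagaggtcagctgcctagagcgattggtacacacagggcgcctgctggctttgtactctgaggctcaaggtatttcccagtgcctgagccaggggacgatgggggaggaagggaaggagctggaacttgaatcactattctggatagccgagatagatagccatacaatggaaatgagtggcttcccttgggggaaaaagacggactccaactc

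The libraries held 21691354 to 26824919 counted reads. Of 14 RGC markers 13 fell, and their summed level was 1662 to 2429 CPM (counts per 1000000 after TMM scaling) in SOHU libraries, against 3580 to 6183 CPM in naive libraries. Of 12 Müller glia and astrocyte markers 8 rose, with a summed level of 18150 to 35440 CPM in SOHU libraries and 10840 to 13350 CPM in naive libraries. Of this sum Apoe alone was 9237 to 17860 CPM in SOHU libraries and 4203 to 5546 CPM in naive libraries. Glul, Rlbp1, Dkk3 and S100b did not pass. The 11 microglia and macrophage markers summed to 40.6 to 105.6 CPM in SOHU libraries and 23.5 to 44.8 CPM in naive libraries. The 11 amacrine and horizontal cell markers summed to 1397 to 1763 CPM in SOHU libraries and 2241 to 2503 CPM in naive libraries. The vascular list summed to 747 to 1068 CPM in SOHU libraries and 360.8 to 408.6 CPM in naive libraries, of which Kdr alone was 561.5 to 855.4 CPM in SOHU libraries and 269.5 to 300.9 CPM in naive libraries, while its defining marker Cdh5 had 0 counts in 3 of the 6 libraries. The bipolar, rod and cone, and pigment epithelium sums overlapped between the groups, and the oligodendrocyte sum was 11.6 to 17.5 CPM in SOHU libraries, against 21.01 to 23.0 CPM in naive libraries, with Olig2 at 0 counts in every library. Since RNA of several cell types was present, a lower level of a gene in RGCs, fewer RGCs and a smaller RGC share of the pull-down cannot be told apart. Nor can these be told apart from a change in other cells, among them amacrine and horizontal cells, whose summed markers were lower too.

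With all 6 libraries and TMM scaling, 3 of the 9 genes fell and none rose; scaled to RGC markers, as described further on, these 3 had log2 fold changes of 0.31 to 0.39 that did not pass. The GDNF co-receptor gene Gfra1, the GDNF receptor kinase gene Ret and the ligand gene Igf1 passed a Benjamini-Hochberg adjusted p of 0.05 in edgeR's quasi-likelihood test, being 1.73-fold, 1.7-fold and 1.87-fold lower in SOHU. Across all genes tested, 13.9% passed: 5.93% of all genes were lower and 8.02% higher, beside 3 of 9 lower and 0 of 9 higher here. The 9 genes had a median log2 fold change of -0.44, beside 0.014 for all genes, and 7 of the 9 had a negative sign, as did 48.9% of all genes. An unadjusted p under 0.05 was reached by 5 of the 9, and by 31.1% of all genes. The groups did not overlap in 5 of the 9, against 39.0% of all genes, with every SOHU library lower in 4 and higher in 1; over all genes 19.7% were separated downward and 19.3% upward. In edgeR all 3 calls were lost when any single naive library or SOHU replicate 2 was left out, and all 3 held without SOHU replicate 3. The number of the 9 genes that passed in edgeR was 0 without naive replicate 1, 0 without naive replicate 2, 0 without naive replicate 3 and 0 without SOHU replicate 2, where 4, 3, 5 and 4 had an unadjusted p under 0.05, limma-voom called 0 in each case and DESeq2 called 2, 3, 3 and 3. Over all genes, in the same order of omissions, 21.5, 25.6, 23.2 and 25.5% had an unadjusted p under 0.05, limma-voom called 0.0, 5.19, 0.0 and 0.0%, and DESeq2 called 12.3, 16.6, 14.7 and 16.6%. Leaving out SOHU replicate 1 gave 2, with Igf1 lower and Igf1r higher, and leaving out SOHU replicate 3 gave 5, with Gfra2 and Ntrk3 lower as well. The share of all genes that edgeR called in the same fits was 0.0% without naive replicate 1 or naive replicate 3, 1.85% without SOHU replicate 2, 4.85% without naive replicate 2, 11.1% when SOHU replicate 1 was left out and 21.6% when SOHU replicate 3 was. With all libraries DESeq2 called 4 of the 9 genes (22.9% of all genes). In edgeR with library totals in place of TMM, Gfra1 passed while Ret and Igf1 had adjusted p-values of 0.0525 and 0.0512.

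**Figure D1:**
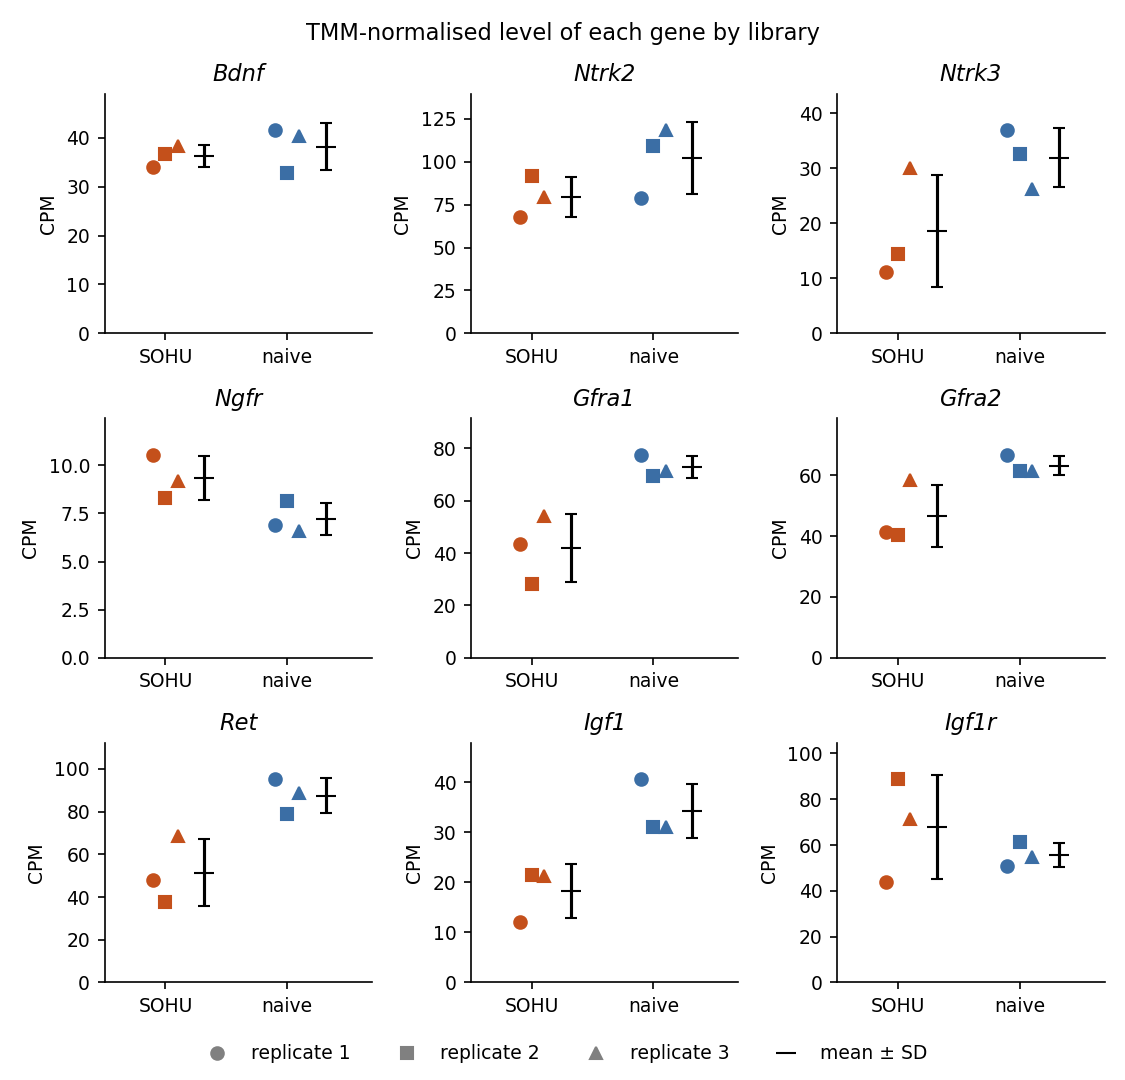
Level of each of the 9 genes in every library, in CPM after TMM scaling, on axes that start at 0. Symbols give the replicate number, and the bar beside each group is the mean with its SD (n = 3); the SOHU libraries lie below all naive libraries for Gfra1, Gfra2, Ret and Igf1, and above them for Ngfr.

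The 3 GDNF receptor genes were lower in every SOHU library than in any naive library, as were 19.7% of all genes. Of these 3 receptor genes 2 passed, beside 5.93% of all genes that passed as lower. Gfra1 (ENSMUSG00000025089.15, mm10 chromosome 19, 58235604 to 58455909, minus strand), which encodes the co-receptor for GDNF, had 43.5, 28.3 and 54.2 CPM in SOHU replicates 1 to 3 and 77.6, 69.6 and 71.2 CPM in naive replicates 1 to 3. The naive libraries were close to each other, whereas SOHU replicate 2 held the lowest level and SOHU replicate 3 lay nearest to the naive group. Gfra1 averaged 42.0 ± 13.0 CPM in SOHU and 72.8 ± 4.24 CPM in naive (SD, n = 3 each), a log2 fold change of -0.79 (SE 0.21, 95% interval -1.27 to -0.32, edgeR adjusted p = 0.0383). Ret (ENSMUSG00000030110.13, chromosome 6, 118151745 to 118197718, minus strand), the kinase that the co-receptors share, had 47.9, 37.6 and 68.7 CPM in SOHU replicates 1 to 3 and 95.1, 78.8 and 88.6 CPM in naive replicates 1 to 3. The order of the SOHU libraries was the same as for Gfra1, with replicate 2 lowest and replicate 3 highest. Ret differed by -0.77 on the log2 scale (SE 0.21, 95% interval -1.23 to -0.30, edgeR adjusted p = 0.0397), with means of 51.4 ± 15.8 CPM in SOHU and 87.5 ± 8.23 CPM in naive (SD, n = 3 each). Gfra2 (ENSMUSG00000022103.10, chromosome 14, 70890120 to 70979838, plus strand), which encodes the co-receptor for neurturin, had 41.3, 40.3 and 58.5 CPM in SOHU replicates 1 to 3 and 66.8, 61.4 and 61.3 CPM in naive replicates 1 to 3. The groups did not overlap for Gfra2 either, but SOHU replicate 3 came within 3 CPM of the lowest naive library. Gfra2 differed by -0.44 on the log2 scale (SE 0.17, 95% interval -0.81 to -0.06, edgeR adjusted p = 0.11), which missed the threshold. For all 3 genes the exact two-sided permutation test over libraries gave p = 0.1, the smallest that 3 against 3 allow.

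The IGF ligand and its receptor differed in sign. Igf1 (ENSMUSG00000020053.18, chromosome 10, 87858265 to 87937042, plus strand), the secreted ligand, had 12.1, 21.6 and 21.3 CPM in SOHU replicates 1 to 3 and 40.6, 31.1 and 31.2 CPM in naive replicates 1 to 3. The groups did not overlap, and the extreme libraries were SOHU replicate 1 at the low end and naive replicate 1 at the high end. Igf1 averaged 18.3 ± 5.36 CPM in SOHU and 34.3 ± 5.47 CPM in naive (SD, n = 3 each), which is -0.91 on the log2 scale (SE 0.23, 95% interval -1.42 to -0.39, edgeR adjusted p = 0.0334). Igf1r (ENSMUSG00000005533.10, chromosome 7, 67952827 to 68233668, plus strand), its receptor kinase, had 43.8, 88.7 and 71.2 CPM in SOHU replicates 1 to 3 and 50.7, 61.3 and 54.9 CPM in naive replicates 1 to 3. SOHU replicate 1 lay below every naive library and the other SOHU libraries above them, so that the groups overlapped. Igf1r differed by 0.29 on the log2 scale (SE 0.23, 95% interval -0.22 to 0.80, edgeR adjusted p = 0.426); without SOHU replicate 1 it was 0.52 with an adjusted p = 0.0492, and without SOHU replicate 2 it was 0.06 with an adjusted p = 0.884.

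None of the 4 neurotrophin genes passed the threshold in edgeR with all libraries, where 13.9% of all genes did. Of the 4, Ntrk3 alone had an unadjusted p under 0.05, which 31.1% of all genes reached. Bdnf (ENSMUSG00000048482.14, chromosome 2, 109674700 to 109727007, plus strand), the ligand, had 33.9, 36.6 and 38.3 CPM in SOHU replicates 1 to 3 and 41.6, 32.7 and 40.3 CPM in naive replicates 1 to 3. The SOHU libraries all lay within the range of the naive libraries. Its log2 fold change was -0.07 with a 95% interval of -0.40 to 0.25 (SE 0.15, edgeR adjusted p = 0.768). Ntrk2 (ENSMUSG00000055254.15, chromosome 13, 58806569 to 59133970, plus strand), the BDNF receptor gene, had 68.0, 91.4 and 79.2 CPM in SOHU replicates 1 to 3 and 78.6, 109.4 and 118.5 CPM in naive replicates 1 to 3. Naive replicate 1 fell inside the SOHU range, and the other naive libraries lay above it. Ntrk2 differed by -0.36 on the log2 scale (SE 0.18, 95% interval -0.76 to 0.04, edgeR adjusted p = 0.205). Ntrk2 gives rise to a full-length kinase and to truncated forms without it, the truncated ones being known from glia, and counts per gene do not separate them.

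Ntrk3 (ENSMUSG00000059146.12, chromosome 7, 78175959 to 78738012, minus strand), the neurotrophin-3 receptor gene, had 11.1, 14.4 and 30.1 CPM in SOHU replicates 1 to 3 and 36.9, 32.6 and 26.3 CPM in naive replicates 1 to 3. SOHU replicates 1 and 2 lay well below the naive group, and SOHU replicate 3 lay inside it. This gave a log2 fold change of -0.78 (SE 0.33, 95% interval -1.52 to -0.05, edgeR adjusted p = 0.136); without SOHU replicate 3 it was -1.31 with an adjusted p = 0.00433, and DESeq2 called it with all libraries (adjusted p = 0.0424). Ngfr (ENSMUSG00000000120.6, chromosome 11, 95568818 to 95587735, minus strand), which encodes p75, was the only one of the 9 genes higher in every SOHU library. It had 10.6, 8.30 and 9.19 CPM in SOHU replicates 1 to 3 and 6.89, 8.16 and 6.59 CPM in naive replicates 1 to 3, so that SOHU replicate 2 and naive replicate 2 nearly met. Its log2 fold change of 0.37 did not pass (SE 0.20, 95% interval -0.07 to 0.82, edgeR adjusted p = 0.235). Ngfr had the fewest reads of the 9 genes, with 254, 185 and 226 counts in SOHU libraries and 179, 190 and 149 in naive libraries.

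Because RGC markers fell by a median of 1.12 on the log2 scale, the 9 genes were also set against them within each library. Scaling the libraries to the summed RGC markers moved the median over all genes to 1.20 on the log2 scale, and 72.5% of all genes then passed, nearly all of them higher. In that scaling Gfra1 had a log2 fold change of 0.36 (adjusted p = 0.336), Ret 0.39 (0.288), Igf1 0.31 (0.422) and Ntrk3 0.34 (0.385). None of these 4 passed in edgeR, but their 95% intervals (-0.32 to 1.03, -0.28 to 1.06, -0.40 to 1.03 and -0.38 to 1.06, in the same order) leave room for differences from the markers in either direction, and each estimate stood below the median over all genes. Bdnf stood near that median with a log2 fold change of 1.14 (95% interval 0.44 to 1.83), and Igf1r (1.47, 0.79 to 2.15) and Ngfr (1.54, 0.74 to 2.34) stood above it. Ntrk2 (0.79) and Gfra2 (0.73) lay between the markers and the median of all genes. Per library, Bdnf amounted to 1.81, 2.20 and 1.57% of the summed RGC marker level in SOHU replicates 1 to 3 and to 0.672, 0.913 and 0.957% in naive replicates 1 to 3, without overlap. Gfra1 amounted to 2.32, 1.71 and 2.23% in SOHU and 1.25, 1.94 and 1.69% in naive, and these ranges overlapped, as they did for Igf1 and Ntrk3. Ret amounted to 2.55, 2.26 and 2.83% in SOHU and 1.54, 2.20 and 2.10% in naive, without overlap. Bdnf, Ret and 4 others of the 9 genes, Ntrk2, Ngfr, Gfra2 and Igf1r, were higher in every SOHU library by this measure, as were 78.5% of all genes. Nefl made up 34.3 to 40.7% of the marker sum in SOHU libraries and 35.3 to 38.5% in naive libraries. A scaling with the neurofilament genes left out of the markers, added after the data were seen, called 67.8% of all genes. In it Ntrk2 and Gfra2 had edgeR adjusted p-values of 0.0512 and 0.0869 in place of 0.0275 and 0.0491. Of the markers left, Sncg was the highest in every library (333.6 to 550.2 CPM in SOHU, 777.3 to 1536 CPM in naive). In the same libraries glial markers moved the other way from RGC markers, and the amacrine and horizontal cell markers summed lower as well. The part of these cells in the scaled values was not tested.

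**Figure D2:**
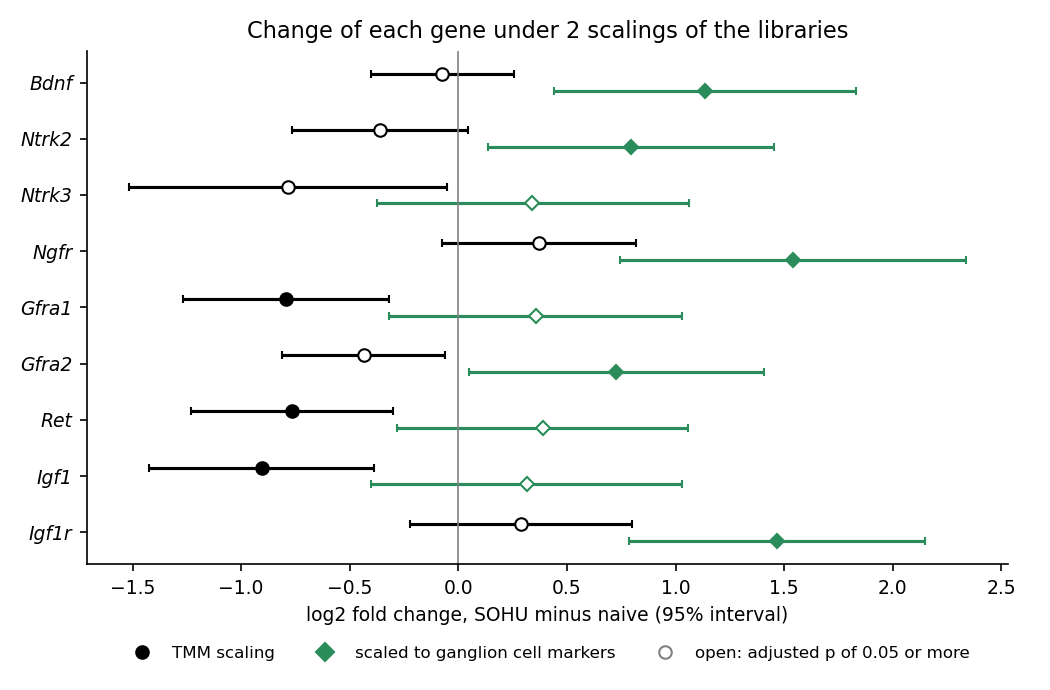
Log2 fold change of each gene, SOHU minus naive, with its 95% interval, under TMM scaling (circles) and with libraries scaled to the summed RGC markers (diamonds); filled symbols have an adjusted p under 0.05. Gfra1, Ret and Igf1 lie between -0.91 and -0.77 in the first and between 0.31 and 0.39 in the second, where the median of all genes is 1.20.

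Between genes, levels were compared as CPM per kilobase of exon, using the merged exon length in the files, which for genes with long alternative exons such as Ntrk3 (30170 bases) and Ntrk2 (19292 bases) lowers the value. The GDNF receptor genes were the most abundant of the 9 on this scale in both groups. In SOHU the order was Gfra2 (13.2 ± 2.90), Gfra1 (7.67 ± 2.37), Ret (7.60 ± 2.34), Bdnf (5.83 ± 0.349), Ntrk2 (4.12 ± 0.608), Igf1r (4.05 ± 1.35), Ngfr (2.71 ± 0.330), Igf1 (1.85 ± 0.541) and Ntrk3 (0.614 ± 0.336), in CPM per kilobase with the SD of 3 libraries. In naive the order was Gfra2 (17.9 ± 0.881), Gfra1 (13.3 ± 0.774), Ret (12.9 ± 1.22), Bdnf (6.14 ± 0.772), Ntrk2 (5.29 ± 1.08), Igf1 (3.46 ± 0.553), Igf1r (3.31 ± 0.317), Ngfr (2.09 ± 0.243) and Ntrk3 (1.06 ± 0.178). Neighbours whose libraries overlapped in SOHU were Gfra1 and Ret, Ret and Bdnf, Ntrk2 and Igf1r, and Igf1r and Ngfr. In naive they were Gfra1 and Ret, Bdnf and Ntrk2, Ntrk2 and Igf1, and Igf1 and Igf1r. Ret and Bdnf thus overlapped in SOHU and were apart in naive, and Igf1 stood below Ngfr in SOHU but above it in naive.

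**Figure D3:**
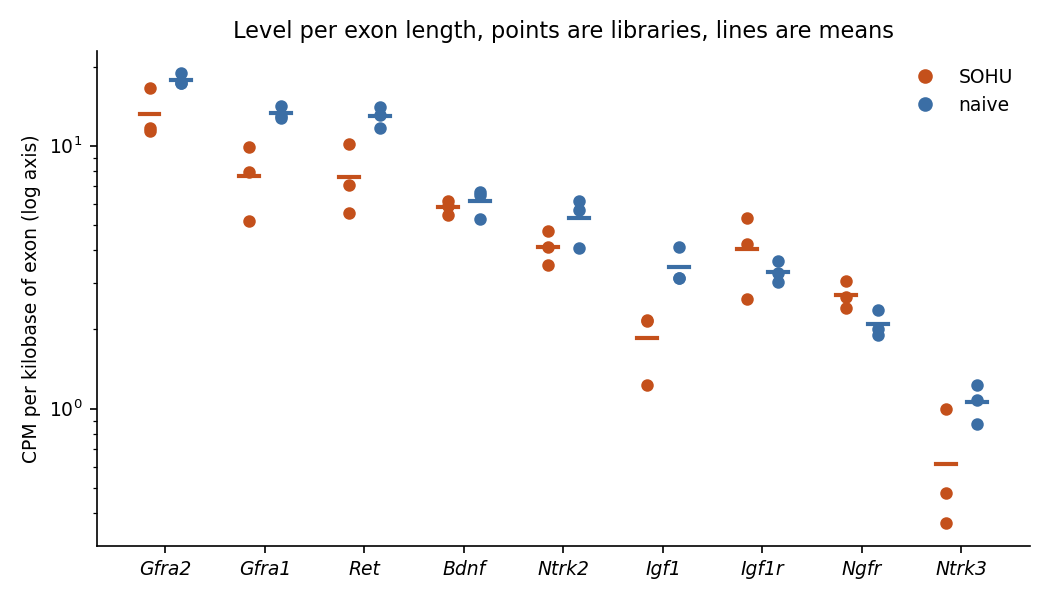
Level of each gene in CPM per kilobase of exon on a log axis, with 1 point per library and a line at the group mean, ordered by the naive mean. Gfra2 is highest (13.2 in SOHU, 17.9 in naive) and Ntrk3 lowest (0.614 in SOHU, 1.06 in naive).

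Ratios within a library do not depend on how libraries are scaled, and were taken per kilobase for related pairs. The ratio of Gfra1 to Gfra2, the alternative co-receptors of RET, was 0.680, 0.454 and 0.598 in SOHU replicates 1 to 3 and 0.751, 0.732 and 0.750 in naive replicates 1 to 3. Every SOHU library lay below the narrow naive range, with a mean log2 difference of -0.39 (-0.81 ± 0.30 in SOHU, -0.43 ± 0.02 in naive, SD, n = 3 each; exact two-sided permutation p = 0.1, the smallest possible). This difference was -0.22 without SOHU replicate 2, which held the lowest ratio. The ratio of Ntrk2 to Ntrk3 was 9.62, 9.90 and 4.12 in SOHU replicates 1 to 3 and 3.33, 5.25 and 7.05 in naive replicates 1 to 3. These groups overlapped, with a mean log2 difference of 0.56 (exact permutation p = 0.3) that was 0.97 without SOHU replicate 3 and 0.27 without naive replicate 1. Both of these pairs were set in the design, but from a list of genes drawn up with earlier results of these data known. The remaining pairs were chosen after their values were seen. The ratio of Ret to Gfra1, kinase to co-receptor, stayed between 0.893 and 1.07 in SOHU and between 0.917 and 1.01 in naive. The ratio of Igf1r to Igf1, receptor to ligand, was 2.13, 2.43 and 1.98 in SOHU replicates 1 to 3 and 0.736, 1.16 and 1.04 in naive replicates 1 to 3. Every SOHU library exceeded every naive library for that ratio, with a mean log2 difference of 1.17. Because this pair and Ret to Gfra1 were picked with their values known, no p-value is given for them.

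**Figure D4:**
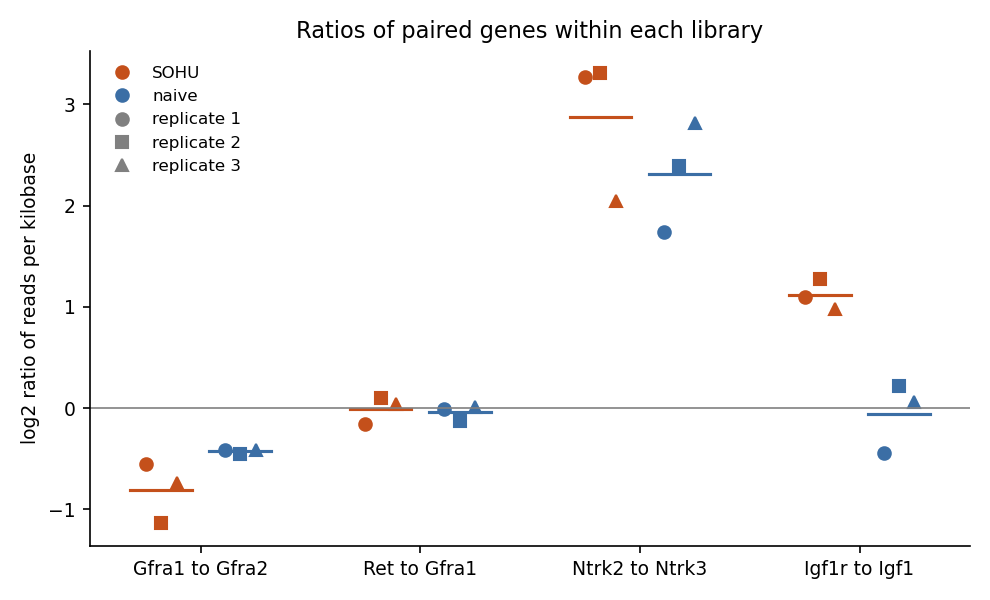
Log2 ratio of reads per kilobase for 4 pairs of genes in each library, with symbols for the replicate number and a line at the group mean. The SOHU libraries lie below the naive ones for Gfra1 to Gfra2 and above them for Igf1r to Igf1, and the groups overlap for Ret to Gfra1 and Ntrk2 to Ntrk3.

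Other genes of the same pathways were taken as 9 lists holding 160 genes, of which 152 were tested. Among these, 28 passed (18.4%, beside 13.9% of all genes), 14 higher and 14 lower, with a median log2 fold change of -0.08 beside 0.014 for all genes. The directions that follow are those under TMM scaling. Of the 11 named genes that fell, 9 had a positive sign with libraries scaled to RGC markers. The exceptions, Pcsk1 and Vgf, did not pass in that scaling. All 110 pathway genes that passed in it were higher, where 72.5% of all genes passed. With library totals in place of TMM, Bex3, Rit2, Dok5, Bex1 and Rtn4r missed the threshold in edgeR, with adjusted p-values of 0.0503 to 0.0636. Of the pathway genes, edgeR called 22 without SOHU replicate 1, 7 without SOHU replicate 2, 47 without SOHU replicate 3, 12 without naive replicate 2 and 0 without naive replicate 1 or naive replicate 3. In the last 2 of these fits 49 and 50 pathway genes had an unadjusted p under 0.05, limma-voom called 0 in each and DESeq2 called 23 and 26. Among the 13 other neurotrophin genes tested, 2 rose, 2 fell and 9 did not pass, with a median of -0.13. Nradd, a relative of p75 with a death domain, rose 2.55-fold (17.5 ± 5.34 CPM in SOHU, 6.87 ± 0.951 CPM in naive, SD, n = 3 each; edgeR adjusted p = 0.0143), and the sorting receptor gene Sorl1 rose 1.40-fold. Bex3, which encodes a p75-binding protein and belongs to a family of related genes, fell 1.43-fold; how reads shared between such genes were counted is not given. Ntf3, the gene for neurotrophin-3, had 2.72 to 3.70 CPM in SOHU and 1.66 to 2.49 CPM in naive (edgeR adjusted p = 0.178). In the list of proBDNF processing and release, 2 of 9 fell and none rose (median -0.08): Pcsk1, a prohormone convertase, fell 2.79-fold and the metalloprotease gene Mmp9 2.14-fold.

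None of the 7 other GDNF family genes tested in edgeR passed, beside 13.9% of all genes (median -0.52, with 4 of the 7 negative). An unadjusted p under 0.05 was reached by 2 (31.1% of all genes). DESeq2 called 1 (22.9% of all genes) and limma-voom 0 (2568 of all genes). Nrtn, which encodes neurturin, the ligand of GFRα2, had 14.9, 20.5 and 14.4 CPM in SOHU replicates 1 to 3 and 13.1, 12.9 and 12.6 CPM in naive replicates 1 to 3 (edgeR adjusted p = 0.217). Gdnf itself had at most 0.610 CPM in SOHU and 0.963 CPM in naive. Gfra4, for the persephin co-receptor, had 52.3, 77.0 and 104.5 CPM in SOHU replicates 1 to 3 and 145, 112.5 and 121.8 CPM in naive replicates 1 to 3, without overlap between the groups (log2 fold change -0.70, edgeR adjusted p = 0.0681). Gfra3, the artemin co-receptor gene, had 0 counts in all 6 libraries. Of 20 other IGF and insulin genes 2 rose and 1 fell (median 0.07). Igfbp5, an IGF-binding protein gene, rose 2.13-fold, with 60.4, 72.4 and 47.0 CPM in SOHU replicates 1 to 3 and 24.9, 30.5 and 29.1 CPM in naive replicates 1 to 3 (log2 fold change 1.09, SE 0.18, edgeR adjusted p = 0.0119). The insulin receptor gene Insr rose 1.49-fold (edgeR adjusted p = 0.033), and Grb14, an adaptor that inhibits the insulin receptor, fell 1.71-fold (edgeR adjusted p = 0.014).

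Downstream genes moved in both directions under TMM scaling. Beside the counts per list that follow, 13.9% of all genes passed, 8.02% higher and 5.93% lower. Of 23 adaptor and early signalling genes, the docking protein gene Gab1 rose 2.09-fold (80.1 ± 12.4 CPM in SOHU, 38.3 ± 3.90 CPM in naive, SD, n = 3 each; edgeR adjusted p = 0.00994), while Rit2, a neuronal small GTPase gene, and Dok5, a docking protein gene of Trk and RET signalling, fell 1.64- and 1.79-fold (list median 0.02). In the PI3K and AKT branch 4 of 23 rose and 1 fell (median -0.16). The risers were Eif4ebp1, a translation repressor gene (4.08-fold), Foxo1, a transcription factor gene restrained by AKT (1.91-fold), Pik3r1, the regulatory subunit gene of PI3K (1.93-fold), and Akt2 (1.83-fold). In the ERK branch and its feedback 5 of 23 rose and 1 fell (median -0.02), among them Nras (2.05-fold) and Mapk3, which encodes ERK1 (1.36-fold). The feedback inhibitor genes Spry1 and Spry2 rose 2.29- and 1.97-fold, with 41.3 ± 8.22 and 17.5 ± 3.10 CPM in SOHU and 18.0 ± 3.81 and 8.88 ± 2.50 CPM in naive (SD, n = 3 each). Of 20 genes for p75 partners and death signalling, 3 fell and none rose (median -0.27): Bex1 of the same family as Bex3 (1.67-fold), Mapk10, the neuronal JNK gene (1.59-fold), and Rtn4r, the Nogo receptor gene (1.75-fold). Of 14 genes linked to CREB, activity and BDNF, 2 fell and none rose (median -0.31): Vgf, a secreted neuropeptide precursor induced by neurotrophins, which fell 2.43-fold (6.15, 6.95 and 10.7 CPM in SOHU replicates 1 to 3, 19.7, 21.1 and 17.1 CPM in naive replicates 1 to 3; edgeR adjusted p = 0.014), and Nptx2, a synaptic pentraxin, which fell 1.75-fold. Which cells these rises and falls came from was not tested. In the same libraries RGC markers and summed amacrine and horizontal cell markers were lower and glial markers higher, as given above.

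**Figure D5:**
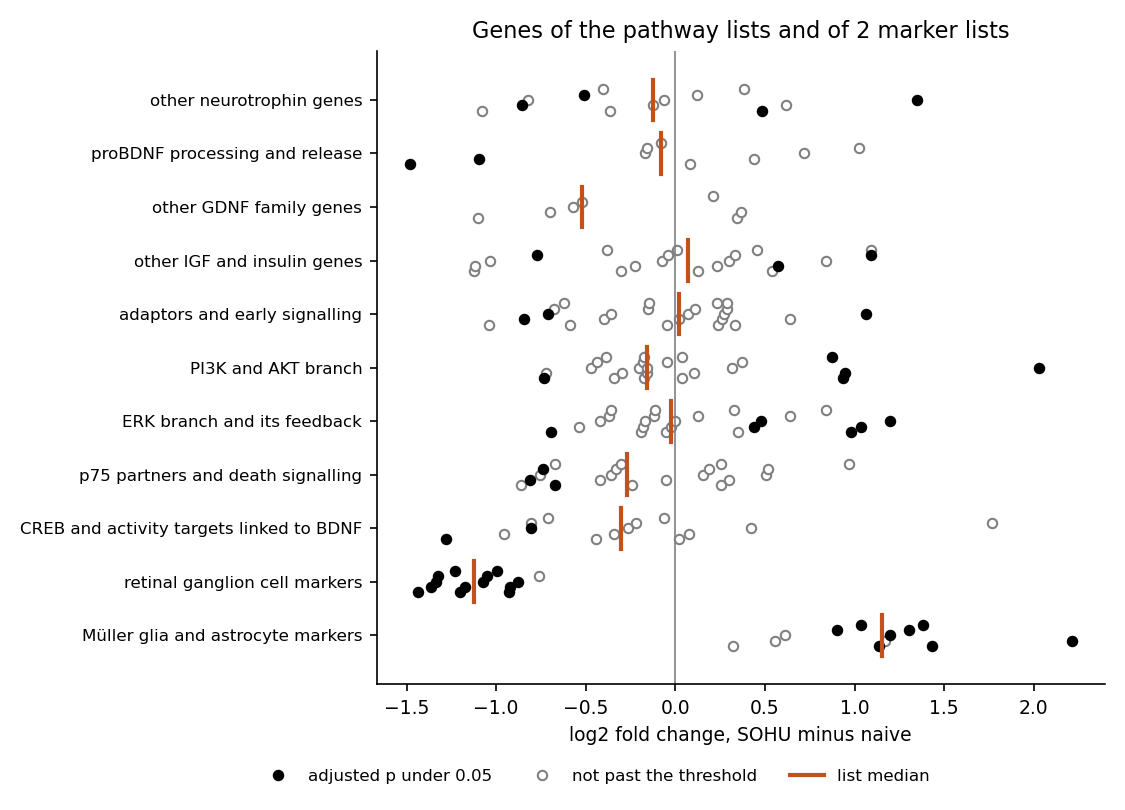
Log2 fold change, SOHU minus naive, of every tested gene in the 9 pathway lists and, below them, in the lists of RGC and of Müller glia and astrocyte markers; filled points have an adjusted p under 0.05 and vertical lines are list medians. Pathway medians lie between -0.52 and 0.07, the RGC markers at -1.12 and the glial markers at 1.15.

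Among the 9 genes, the pair most alike in pattern over the 6 libraries was Ret and Gfra1 (Pearson r of log2 CPM 0.98), followed by Ret and Gfra2 (0.97) and Gfra2 and Ntrk3 (0.96). In these genes SOHU replicate 3 was the SOHU library nearest to the naive group, as it was for the RGC marker sum. Of the 10421 genes whose log2 CPM averaged 3 or more, the 3 nearest to Gfra1 were Btbd3, Crhr1 and Synrg, those nearest to Ret were Tef, Siah2 and Slc29a4, and those nearest to Igf1 were Rgs17, Efr3b and Rnf41, with r between 0.996 and 0.999 in all 9 cases. The points of each correlation are 6 libraries in 2 groups that share depth and preparation, and with so many genes compared such values are a description of likeness only. Crhr1, the corticotropin-releasing hormone receptor gene, had 9.02, 5.34 and 11.9 CPM in SOHU replicates 1 to 3 and 19.98, 15.9 and 16.9 CPM in naive replicates 1 to 3, with the same order of SOHU libraries as Gfra1.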

How the data were processed

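Retinal RNA recovered by anti-HA pull-down was sequenced in 3 SOHU and 3 naive libraries. The authors deposited raw counts of reads per gene, 1 table for all libraries and 1 file per library; all 6 columns of the table equalled the single files. The tools named are featureCounts, HISAT2 (also HISAT), Trim Galore, MultiQC and bcl2fastq 2.17, with build mm10, per the submitters' processing notes; their settings, the annotation release and strand use were not given in the sources used here. Per the file headers, gene coordinates and merged exon lengths (unit: other, bases) are deposited beside the counts. Symbols came from GENCODE M21 by identifier (55154 of 55335 genes matched). Of the 9 genes, 2 share exon bases with another gene (Bdnf and Gfra1, on the opposite strand), and no gene named from the 9 or the pathway lists shares exons with one at 10% of its counts or more.

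Genes were filtered with filterByExpr (17687 kept, at least 99.84% of reads in each library), scaled by TMM (factors 0.943 to 1.04) and compared with edgeR 4.0.16 (R 4.3.3, robust quasi-likelihood test, group as the only term), with Benjamini-Hochberg adjustment over all genes tested and a threshold of 0.05. A change is SOHU minus naive, in log2. Log2 CPM used a prior count of 2. The fit was run on simulated counts with 200 changed genes, as a check of the code only. DESeq2 1.42.0 and limma 3.58.1 were alternatives. No libraries of a group were copies of each other (chi-square per degree of freedom 13.8 to 87.9). The 9 genes, the 9 pathway lists and the 9 cell type marker lists were chosen with earlier results of these data known. Named pathway genes are up to 4 per list with the smallest p among those that passed, 24 in all, with 1 further gene counted in its list but not reported here; the ligand and co-receptor genes Ntf3, Nrtn, Gdnf, Gfra3 and Gfra4 were named after their values were seen. Similar genes are the 3 with the highest Pearson correlation to each of the 3 members with the smallest p, predicted genes left out.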

Additional observations from a re-analysis of the deposited data

How the results depend on the processing

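Gfra1, Ret and Igf1 stayed lower in SOHU under every alternative except scaling to RGC markers. With library totals only, 1 of the 9 genes passed (and 2120 of all genes), as Ret and Igf1 had adjusted p-values of 0.0525 and 0.0512. Leaving out 1 library at a time, the number of the 9 genes past the threshold ranged from 0 to 5, that of pathway genes from 0 to 47 and that of all genes from 0 to 3896; the log2 difference of the Ntrk2 to Ntrk3 ratio ranged from 0.27 to 0.97 and that of Gfra1 to Gfra2 from -0.51 to -0.22. DESeq2 called 48 pathway genes, against 28 in edgeR.

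Scaled to the RGC markers, 12829 genes, 110 pathway genes and 5 of the 9 genes passed, all 5 higher; without the neurofilament genes among the markers, added after seeing the data, these were 11995, 100 and 3. By construction both scalings raise nearly all genes. In each pair that follows the full marker set comes first. The log2 fold changes became positive for Bdnf (1.14, 1.11), Ntrk2 (0.79, 0.78), Ntrk3 (0.34, 0.30), Gfra1 (0.36, 0.32), Gfra2 (0.73, 0.69), Ret (0.39, 0.35) and Igf1 (0.31, 0.29), and among pathway genes for Bex3 (0.69, 0.66), Mmp9 (0.0611, 0.0178), Grb14 (0.43, 0.40), Rit2 (0.48, 0.46), Dok5 (0.31, 0.28), Bex1 (0.44, 0.41), Mapk10 (0.50, 0.46), Rtn4r (0.34, 0.31) and Nptx2 (0.36, 0.33).

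Replicate numbers do not pair the libraries by any label. Deviations from the group means correlated by 0.16, 0.25 and 0.004 between same-numbered libraries, and SOHU replicate 3 correlated best with naive replicate 1. With the replicate block 2 of the 9 genes passed, Igf1 missing at an adjusted p of 0.0525, and 2070 genes of all and 26 pathway genes passed; of the named pathway genes Sorl1, Bex3, Insr and Mapk3 missed, with adjusted p-values of 0.055, 0.0615, 0.0508 and 0.0742; the ratio differences were 0.56 and -0.39. The 95% interval of Bdnf does not exclude log2 changes between -0.40 and 0.25.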
